A study of Arabidopsis thaliana with 8 samples.

Results

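The seed transcripts followed here come from 9 Arabidopsis genes: the storage protein gene CRU3 (AT4G28520), the oleosin genes OLEO1 (AT4G25140), OLEO2 (AT5G40420), OLEO3 (AT5G51210) and AT2G25890, the late embryogenesis abundant (LEA) genes LEA4-5 (AT5G06760), AT3G15670 and M17 (AT2G41260), and the peroxiredoxin gene PER1 (AT1G48130). They were chosen by gene identifier, and all 9 were found among the 22645 probe sets tested. The platform annotation named 5 of them, and the other 4 probe sets (CRU3, OLEO1, OLEO2 and PER1) were named through the study's published list. It holds genes past the study's thresholds in at least 1 of its comparisons, which drew on these arrays and on rosette arrays of another transgenic line processed with them. The list includes 6 of the 9 genes, namely these 4 with AT2G25890 and M17. Because these samples helped to make the list, a difference in those 6 is not independent evidence. LEA4-5, AT3G15670 and OLEO3 are not on it.

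Total RNA of whole 7-d-old seedlings was hybridised to ATH1 GeneChip arrays, 8 in all, with 2 arrays in each of 4 groups. OE-HRA1 seedlings, in the Col-0 background, carry HRA1 with a FLAG tag under the CaMV 35S promoter, which is active in most tissues, and Col-0 is the wild type. HRA1 encodes a trihelix transcription factor. Both genotypes were held for 2 h under hypoxia (2HS, argon) or for 2 h in air without stress (2NS). The OE-HRA1 arrays of each treatment come from 2 independent lines (#1 and #2) with 1 array per line, so line and replicate cannot be told apart there, whereas the Col-0 arrays carry replicate numbers 1 and 2. The series describes 2 independent biological replicate experiments. For both Col-0 hypoxia arrays the source field names the non-stress treatment, while title and treatment field give hypoxia, and hypoxia was used. Values are log2 signals after robust multichip averaging (RMA), and a difference of 1 between groups is a 2-fold change. It is given as the signal log2 ratio (SLR) with its standard error (SE).

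During seed maturation the embryo fills with cruciferins, the 12S globulins that store nitrogen, and with oil bodies, which are coated by oleosins. LEA proteins and the 1-cysteine peroxiredoxin PER1 accumulate late, when the seed dries, and are known as protectants of the dry embryo. The transcripts of these genes are abundant in the dry seed and decline after germination, when reserves are consumed, and several LEA genes can be switched on again in seedlings by abscisic acid (ABA) or loss of water. Whole seedlings were measured, so that more cells holding a transcript and more transcript per cell cannot be told apart.

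The HRA1 probe set read 12.19 and 12.02 on the OE-HRA1 arrays against 11.74 and 12.10 in Col-0 under hypoxia, and 12.98 and 13.09 on the OE-HRA1 arrays against 7.20 and 7.00 in Col-0 in air. The OE-HRA1 arrays thus stood far above Col-0 in air, whereas under hypoxia the genotypes overlapped at this probe set. ADH1 and PDC1, which encode the fermentation enzymes alcohol dehydrogenase and pyruvate decarboxylase, were higher on both hypoxia arrays than on both air arrays of each genotype. Array medians lay between 7.15 and 7.26, and the 2 arrays of a group correlated at 0.994 to 0.997. Of 7 marker genes listed for each of 3 tissues, only 1 could be read. RCA, of green tissue, was at 14.56 to 14.57 on the OE-HRA1 arrays and 14.55 to 14.59 on the Col-0 arrays. BAN, of the seed coat, was at 5.11 to 5.35 on the OE-HRA1 arrays and 5.06 to 5.18 on the Col-0 arrays. SHV2, also known as COBL9 and needed for root hair growth, was at 7.35 to 8.37 on the OE-HRA1 arrays and 6.95 to 8.06 on the Col-0 arrays, with an averaged genotype difference of 0.33 (adjusted p = 0.0549). RCA read higher than every other listed gene and BAN read close to OLEO3, so signals at either end may hide a difference. The part of tissue makeup in the genotype differences was not tested.

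CRU3, which encodes a cruciferin, showed the largest genotype difference of the 9 genes. Under hypoxia it read 10.63 on line #1 and 11.17 on line #2, against 7.80 and 7.74 in Col-0. In air it read 10.04 on line #1 and 10.44 on line #2, against 8.00 and 8.47 in Col-0. Every OE-HRA1 array was more than 1 log2 unit above every Col-0 array. The group means were 10.90 ± 0.38 in OE-HRA1 and 7.77 ± 0.04 in Col-0 under hypoxia, and 10.24 ± 0.29 in OE-HRA1 and 8.23 ± 0.33 in Col-0 in air (SD, n = 2 each). The SLR was 3.13 under hypoxia (adjusted p = 0.000275, SE 0.22), an 8.74-fold difference. It was 2.01 in air (adjusted p = 0.00911, SE 0.22), a 4.01-fold difference. Differences were called where |SLR| exceeded 1 with an adjusted p under 0.01 over all probe sets tested, the thresholds of the study, and CRU3 was called in both treatments. The hypoxia call was kept when any single array was left out (adjusted p = 0.000489 to 0.00426) but not when both arrays of line #2 were left out (adjusted p = 0.0125). The call in air was lost when any of the 4 air arrays or either OE-HRA1 hypoxia array was left out (adjusted p = 0.0174 to 0.0817), although the SLR stayed between 1.77 and 2.24.

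**Figure D1:**
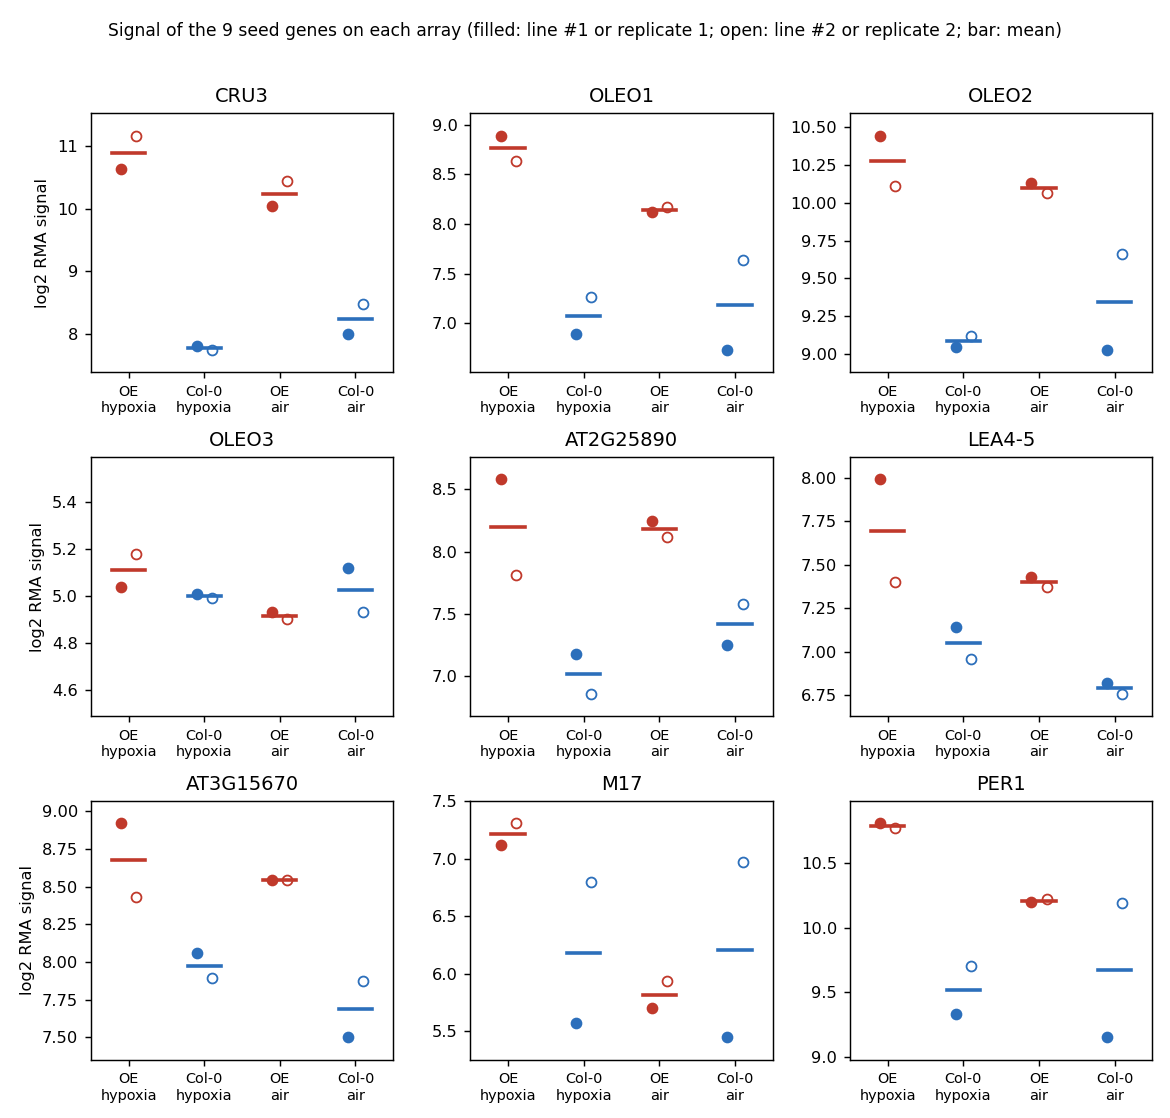
Log2 RMA signal (y axis, own scale per gene) of the 9 seed genes on the 8 arrays, by genotype (OE-HRA1 red, Col-0 blue) and treatment. Filled points are line #1 or replicate 1, open points are line #2 or replicate 2, and bars are means of 2 arrays. CRU3 separates the genotypes most widely, OLEO3 stays between 4.90 and 5.18 on every array, and the Col-0 points of M17 lie far apart.

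Oleosins are the small proteins that coat oil bodies and keep them from fusing. OLEO1 read 8.89 and 8.64 on the OE-HRA1 arrays (lines #1 and #2) against 6.89 and 7.26 in Col-0 under hypoxia, and 8.12 and 8.17 on the OE-HRA1 arrays against 6.73 and 7.64 in Col-0 in air. All OE-HRA1 arrays were above all Col-0 arrays, and the Col-0 air arrays differed most from each other. OLEO1 was called under hypoxia (SLR 1.69, SE 0.26, adjusted p = 0.00933) but not in air (SLR 0.96, SE 0.26, adjusted p = 0.139). The hypoxia call was lost without either Col-0 hypoxia array or without any single OE-HRA1 array (adjusted p = 0.0185 to 0.0601), while the SLR ranged from 1.51 to 1.87. In air the SLR of OLEO1 was 0.50 without both Col-0 replicate 1 arrays and 1.42 without both replicate 2 arrays.

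OLEO2 read 10.44 and 10.11 on the OE-HRA1 arrays against 9.05 and 9.12 in Col-0 under hypoxia, and 10.13 and 10.06 on the OE-HRA1 arrays against 9.03 and 9.66 in Col-0 in air. The 4 OE-HRA1 arrays again lay above the 4 Col-0 arrays. The SLR of 1.19 under hypoxia just missed the threshold on p (SE 0.19, adjusted p = 0.0105). That of 0.75 in air did not reach it (SE 0.19, adjusted p = 0.118). Under hypoxia the SLR was 1.15 without both Col-0 replicate 1 arrays and 1.23 without both replicate 2 arrays. The oleosin AT2G25890 read 8.58 and 7.81 on the OE-HRA1 arrays against 7.18 and 6.86 in Col-0 under hypoxia, and 8.25 and 8.12 on the OE-HRA1 arrays against 7.25 and 7.58 in Col-0 in air. It did not overlap between the genotypes, but line #1 was 0.77 above line #2 under hypoxia. Its SLR was 1.17 under hypoxia (adjusted p = 0.0247) and 0.77 in air (adjusted p = 0.18), with an SE of 0.24 in each, and it was not called.

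OLEO3 stayed within 0.28 log2 units over the 8 arrays. It read 5.04 and 5.18 on the OE-HRA1 arrays against 5.01 and 4.99 in Col-0 under hypoxia, and 4.93 and 4.90 on the OE-HRA1 arrays against 5.12 and 4.93 in Col-0 in air. The SLR was 0.11 under hypoxia and -0.11 in air (SE 0.09 each, adjusted p = 0.505 and 0.674). Its probe set was outside the 60% with the highest mean signal, so a low OLEO3 level and a probe set that does not respond cannot be told apart. The probe set of M17 was outside the 60% as well, but its signal ranged over 1.86 log2 units.

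LEA4-5 and AT3G15670, of the LEA proteins thought to stabilise membranes and proteins on drying, are 2 of the genes that the published list does not hold. LEA4-5 read 7.99 and 7.40 on the OE-HRA1 arrays against 7.14 and 6.96 in Col-0 under hypoxia, and 7.43 and 7.37 on the OE-HRA1 arrays against 6.82 and 6.76 in Col-0 in air. AT3G15670 read 8.92 and 8.43 on the OE-HRA1 arrays against 8.06 and 7.89 in Col-0 under hypoxia, and 8.54 on each OE-HRA1 array against 7.50 and 7.87 in Col-0 in air. Neither gene overlapped between genotypes, and the differences were smaller than for CRU3. The SLR of LEA4-5 was 0.65 under hypoxia (adjusted p = 0.0584) and 0.61 in air (adjusted p = 0.146), with an SE of 0.17 in each. The SLR of AT3G15670 was 0.70 under hypoxia (adjusted p = 0.047) and 0.85 in air (adjusted p = 0.0636), also with an SE of 0.17, and neither gene was called.

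M17 and PER1 varied more among the Col-0 arrays. M17, which encodes a LEA protein, read 7.12 and 7.31 on the OE-HRA1 arrays against 5.57 and 6.80 in Col-0 under hypoxia, and 5.70 and 5.94 on the OE-HRA1 arrays against 5.45 and 6.97 in Col-0 in air. Under hypoxia both lines lay above Col-0, whereas in air they lay between the Col-0 replicates. The SLR of 1.03 under hypoxia and -0.39 in air had an SE of 0.49 each and was not called (adjusted p = 0.245 and 0.81). Under hypoxia the SLR was 0.42 without both Col-0 replicate 1 arrays and 1.64 without both replicate 2 arrays. PER1 read 10.81 and 10.77 on the OE-HRA1 arrays against 9.33 and 9.70 in Col-0 under hypoxia, and 10.20 and 10.22 on the OE-HRA1 arrays against 9.15 and 10.19 in Col-0 in air. The lines differed by no more than 0.04 from each other, and Col-0 replicate 2 in air came within 0.01 of line #1. Its SLR was 1.27 under hypoxia (adjusted p = 0.0351) and 0.54 in air (adjusted p = 0.441), with an SE of 0.28 in each, and it was not called. In air the SLR of PER1 was 0.02 without both Col-0 replicate 1 arrays and 1.07 without both replicate 2 arrays. Under hypoxia it was 1.09 without replicate 1 and 1.46 without replicate 2. Such fits leave 1 array in each Col-0 group and measure no spread in Col-0, so their p-values are not given.

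Under hypoxia 2 of the 9 genes were called higher in OE-HRA1 (CRU3 and OLEO1) and none lower, while 0.305% of all probe sets tested were called higher and 0.627% lower. In air 1 was called higher (CRU3) and none lower, beside 0.0397% of all probe sets called higher and 0.0707% lower. The median SLR of the 9 genes was 1.17 under hypoxia and 0.75 in air, where all probe sets had medians of 0.03 and 0.01. Both OE-HRA1 arrays lay above both Col-0 arrays for 9 of 9 genes under hypoxia (29.5% of all probe sets) and for 7 of 9 in air (25.4%). Over both treatments together, the 4 OE-HRA1 arrays lay above the 4 Col-0 arrays for 7 of 9 genes, with OLEO3 and M17 as the exceptions, and for 5.62% of all probe sets. Of these 7 genes, 5 are on the published list. CRU3 and OLEO1 were named only through that list, so no call of theirs is independent evidence beside these shares. LEA4-5, AT3G15670 and OLEO3, which are not on it, were not called. The list was made with the same thresholds and partly from these arrays, so their lack of a call is not independent of it either.

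**Figure D2:**
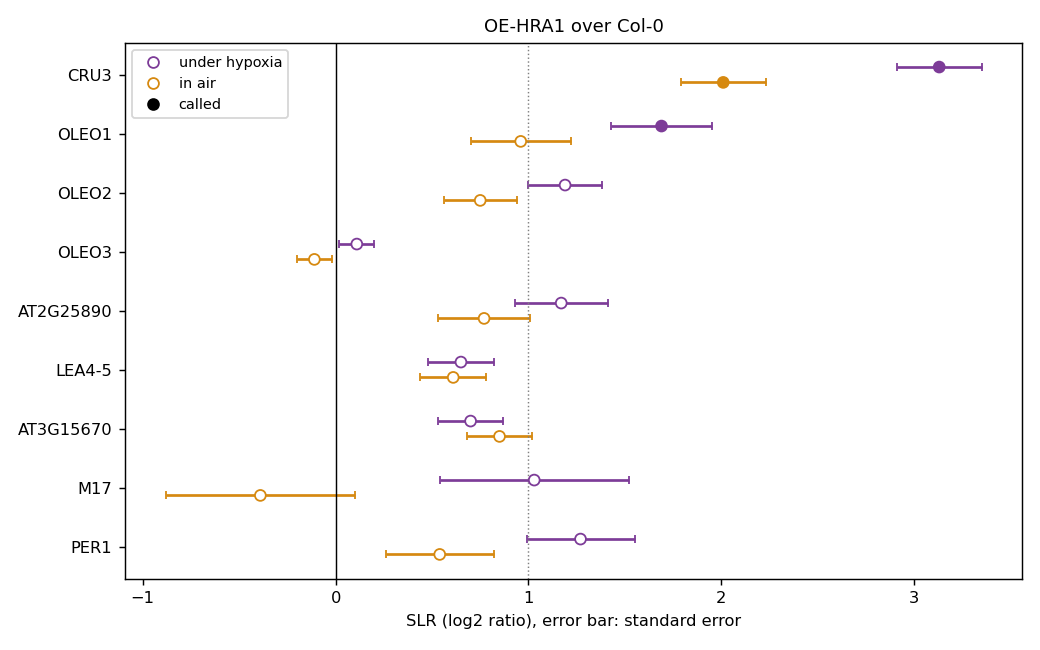
SLR of OE-HRA1 over Col-0 (x axis, log2 ratio, bars are standard errors) for the 9 genes under hypoxia (purple) and in air (orange). Filled points passed both thresholds, and the dotted line marks an SLR of 1. CRU3 at 3.13 and OLEO1 at 1.69 under hypoxia and CRU3 at 2.01 in air are filled.

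The mean of the 2 genotype differences, which uses all 8 arrays, had a smaller standard error. This fit counts the air and hypoxia arrays of one line or one Col-0 replicate number as independent. Their deviations correlated at 0.15 in OE-HRA1 and 0.373 in Col-0, so its standard errors and p-values may be too small. CRU3 (SLR 2.57, SE 0.15, adjusted p = 0.000145) and OLEO1 (SLR 1.32, SE 0.18, adjusted p = 0.00423) were called higher and none of the 9 lower, beside 0.225% of all probe sets called higher and 0.371% lower. OLEO2 and AT2G25890 both had an SLR of 0.97, with adjusted p = 0.00423 and 0.00941, and AT3G15670 had one of 0.78 (adjusted p = 0.00661). These 3 genes passed the threshold on p but not that on size. With the threshold on p alone, 5 of the 9 genes were higher and none lower, beside 1.65% of all probe sets higher. PER1 (SLR 0.91, adjusted p = 0.0235), LEA4-5 (SLR 0.63, adjusted p = 0.0142), M17 (SLR 0.32, adjusted p = 0.592) and OLEO3 (SLR 0.00, adjusted p = 1.0) did not pass it. The call of CRU3 was kept without any single array and without both arrays of either line or of either Col-0 replicate. The call of OLEO1 was lost without any single OE-HRA1 array (adjusted p = 0.0162 to 0.023) and kept without any single Col-0 array. Without both Col-0 replicate 1 arrays the SLR of OLEO1 was 1.01, and without both replicate 2 arrays it was 1.64.

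Hypoxia for 2 h left no call among the 9 genes in either genotype. Of all probe sets, 3.08% were called in either direction in OE-HRA1 and 2.86% in Col-0. In limma's fit 3 of the 9 genes had an unadjusted p under 0.05 in OE-HRA1 (M17, CRU3 and OLEO1) and 0 in Col-0. Of the 22645 probe sets, 7533 had one in OE-HRA1 and 6563 in Col-0. The SLR of hypoxia over air was positive for all 9 genes in OE-HRA1, from 0.01 for AT2G25890 to 1.39 for M17, and for 2 of 9 in Col-0 (LEA4-5 and AT3G15670). Of all probe sets it was positive for 52.0% in OE-HRA1 and 46.5% in Col-0. The medians were 0.29 in OE-HRA1 and -0.11 in Col-0, against 0.01 in OE-HRA1 and -0.01 in Col-0 for all probe sets. CRU3 had an SLR of 0.66 in OE-HRA1 (SE 0.22, adjusted p = 0.0674) and -0.46 in Col-0 (SE 0.22, adjusted p = 0.205). Its hypoxia arrays lay above its air arrays in OE-HRA1 and below them in Col-0, which held for 1.78% of all probe sets. The interaction, which tests whether the hypoxia response differs between genotypes, was 1.12 for CRU3 (SE 0.31, adjusted p = 0.441). For OLEO1 and PER1 it was 0.73 each (adjusted p = 0.895 and 0.916), and for the other genes except M17 it lay between -0.15 and 0.44. No gene of the 9 was called for the interaction, where 0.168% of all probe sets were called, and 1 (CRU3) had an unadjusted p under 0.05. Of the 22645 probe sets, 1296 had one.

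M17 had the largest hypoxia response of the 9 genes, and its call depended on how far the difference between the Col-0 replicates entered the fit. In OE-HRA1 the difference was alike in both lines, with 7.12 under hypoxia against 5.70 in air in line #1 and 7.31 under hypoxia against 5.94 in air in line #2. In Col-0, replicate 1 had 5.57 under hypoxia against 5.45 in air and replicate 2 had 6.80 under hypoxia against 6.97 in air. With a mean per group, the difference between the Col-0 replicates counts as spread, and the SLR of 1.39 in OE-HRA1 had an SE of 0.49 (adjusted p = 0.0854). Fitted on the OE-HRA1 arrays alone, without pairing, M17 was called (SE 0.11, adjusted p = 0.000224). Leaving out both arrays of either Col-0 replicate repeats this fit, as single Col-0 arrays add nothing to the spread, and is no further evidence. When the line and the Col-0 replicate number were added as a block within each genotype, a setting chosen after the values were seen, the SE was 0.10 with 2 residual degrees of freedom. M17 was then called higher under hypoxia in OE-HRA1 (SLR 1.39, adjusted p = 5.18e-05, beside 2.06% of all probe sets) and had an SLR of -0.02 in Col-0 (adjusted p = 0.92). The interaction was called as well (SLR 1.42, SE 0.14, adjusted p = 0.00428, beside 0.287% of all probe sets in either direction). A block by replicate number across genotypes did not give a call (adjusted p = 0.0218 for the response in OE-HRA1 and 0.657 for the interaction).

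**Figure D3:**
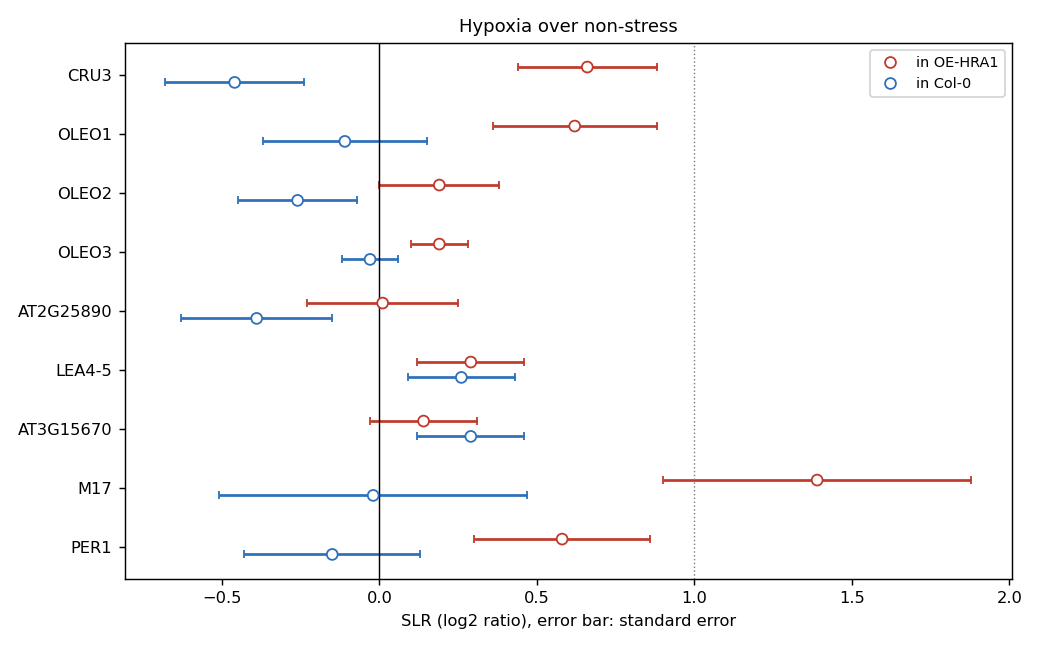
SLR of hypoxia over non-stress (x axis, log2 ratio, bars are standard errors of the fit with a mean per group) for the 9 genes in OE-HRA1 (red) and Col-0 (blue). The dotted line marks an SLR of 1, and no point passed both thresholds. All 9 red points are above 0, M17 farthest at 1.39, and 7 of the 9 blue points are below 0.

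The arrays of a group differed for some genes about as much as the genotypes did. Col-0 replicate 2 was above replicate 1 in both treatments for 4 of the 9 genes (27.8% of all probe sets). For M17 it was 1.22 higher under hypoxia and 1.51 higher in air, for PER1 0.36 and 1.04, for OLEO1 0.36 and 0.91, and for OLEO2 0.08 and 0.63. With a replicate term within each genotype, added after the values were seen, the difference of the Col-0 replicates was 1.37 for M17 (SE 0.10, adjusted p = 0.00311, beside 0.0972% of all probe sets called in either direction) and was not called for the other 8 genes (PER1 0.70, adjusted p = 0.0866, and OLEO1 0.64, adjusted p = 0.1). Without both Col-0 replicate 1 arrays, the averaged genotype SLR was -0.36 for M17 and 0.56 for PER1. Without both Col-0 replicate 2 arrays it was 1.01 for M17 and 1.26 for PER1, so the sign for M17 and the size for PER1 rested on which Col-0 replicate was used. For CRU3 the same values were 2.46 and 2.67.

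Between the 2 transgenic lines none of the 9 genes was called. Line #1 minus line #2, averaged over treatments, ranged from -0.47 for CRU3 to 0.45 for AT2G25890, with 2 unadjusted p under 0.05 (CRU3 and LEA4-5). Of all probe sets, 810 had one. One probe set of 22645 (0.00442%) was called between the lines in either direction. CRU3 was higher in line #2 in both treatments, by 0.54 under hypoxia and by 0.41 in air. AT2G25890, LEA4-5 and AT3G15670 were 0.77, 0.59 and 0.48 higher in line #1 under hypoxia, while in air the lines were within 0.12 of each other for these 3 genes.

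**Figure D4:**
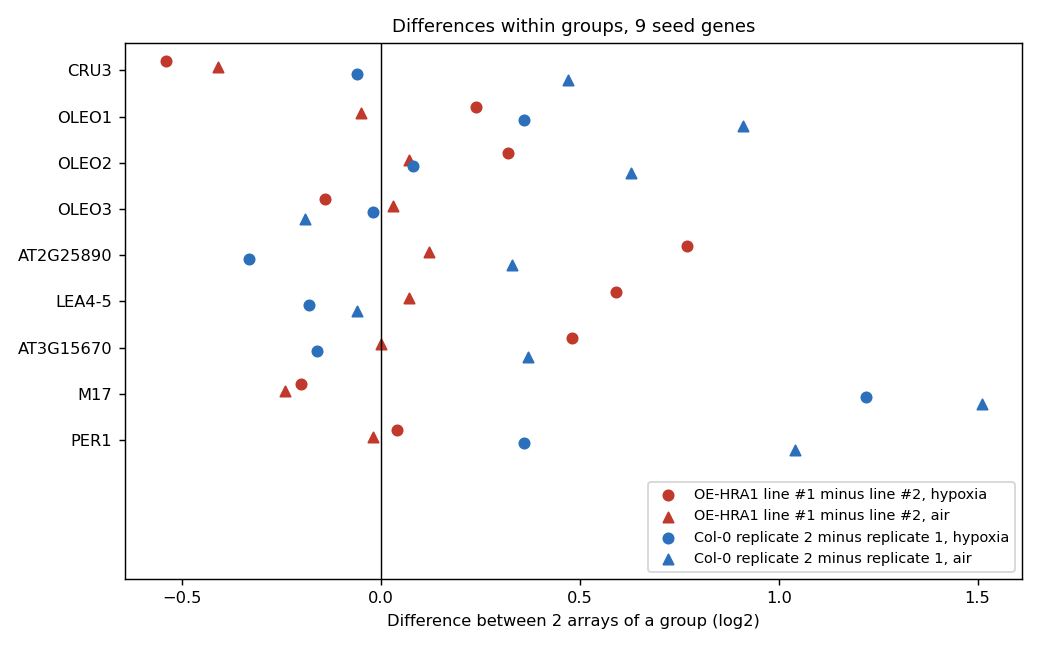
Difference between the 2 arrays of each group (x axis, log2) for the 9 genes, with OE-HRA1 line #1 minus line #2 in red and Col-0 replicate 2 minus replicate 1 in blue, under hypoxia (circles) and in air (triangles). The Col-0 differences of M17 reach 1.22 and 1.51, and those between lines stay between -0.54 and 0.77.

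Lists of further seed and reserve genes were read where the platform annotation or the published list named a probe set. Some genes, among them CRU3, OLEO1, OLEO2 and MLS, could be read only because they had passed the study's thresholds. The list medians that include them are therefore not independent of these data. Of 13 seed storage protein genes listed, 6 could be read, and 1 (CRU3) was called higher under hypoxia, in air and on average. The cupin gene AT2G28490, of the same protein family as the globulins, had an averaged SLR of 0.95 (adjusted p = 0.0279) and AT4G36700 had one of 0.63 (adjusted p = 0.00958), neither of them called. The list's median averaged SLR was 0.39. Of 15 listed oil body genes, 6 could be read, with a median of 0.90. OLEO1 and OLEO2, named only through the published list, had averaged SLR of 1.32 and 0.97. Those named by the platform had 0.97 (AT2G25890), 0.84 (AT3G01570), 0.18 (AT3G18570) and 0.00 (OLEO3). Besides OLEO1, AT3G01570 was called higher under hypoxia (SLR 1.06, SE 0.13, adjusted p = 0.0038), with 8.32 and 8.15 on the OE-HRA1 arrays against 7.06 and 7.28 in Col-0. It is not on the published list. All its OE-HRA1 arrays, 7.71 and 7.78 in air included, were above all its Col-0 arrays, at 6.95 and 7.32 in air.

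Of 27 listed LEA genes, 18 could be read and none was called in either direction. Their averaged SLR ranged from -0.20 to 0.78 with a median of 0.32, and 16 of 18 were above 0, as were 55.9% of all probe sets. After AT3G15670, the largest were those of LEA18, also known as LEA4-2 (SLR 0.75, adjusted p = 0.00277), and AtLEA4-1 (SLR 0.70, adjusted p = 0.00489). Counting storage, oil body and LEA genes other than the 9, 22 could be read, with a median averaged SLR of 0.26 against 0.02 for all probe sets. With the threshold on p alone 4 of the 22 were higher (AT3G01570, LEA18, AtLEA4-1 and AT4G36700) and 0 lower, beside 1.65% of all probe sets higher. AtLEA4-1 is on the published list and the other 3 are not.

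Genes that draw on seed reserves were read as well. ICL, which encodes isocitrate lyase of the glyoxylate cycle and is used to turn stored oil into sugar, was called higher in OE-HRA1 under hypoxia, in air and on average. It read 10.19 and 9.98 on the OE-HRA1 arrays against 8.81 and 8.80 in Col-0 under hypoxia, and 9.88 and 9.86 on the OE-HRA1 arrays against 8.43 and 8.66 in Col-0 in air. The SLR was 1.28 under hypoxia (adjusted p = 0.000627), 1.32 in air (adjusted p = 0.00515) and 1.30 on average. MLS, which encodes malate synthase of the same cycle, had an averaged SLR of 0.76 that was below the threshold on size (adjusted p = 0.00734). BETA-VPE, which encodes a vacuolar processing enzyme of seeds, had 0.74 (adjusted p = 0.00682). Of the 18 genes of oil and storage protein breakdown 9 could be read, and none other than ICL was called between genotypes. ICL and MLS are on the published list, MLS being named only through it, and BETA-VPE is not.

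Genes that respond to ABA or dehydration did not share a direction. Of 22 listed, 5 could be read, with averaged SLR from -1.30 to 1.03 and a median of -0.21. AT3G02480 was called higher under hypoxia (SLR 1.17, adjusted p = 0.00456) and on average (SLR 1.03, adjusted p = 0.00139). COR15A, a cold and dehydration induced gene of the chloroplast LEA type, had -1.30 on average and was not called (adjusted p = 0.0231). It read 5.48 and 5.37 on the OE-HRA1 arrays against 6.20 and 7.30 in Col-0 under hypoxia, and 5.04 and 5.30 on the OE-HRA1 arrays against 5.88 and 7.01 in Col-0 in air. Of 13 listed regulators of seed maturation only EEL and bZIP53 could be read, with averaged SLR of 0.01 and 0.04, and none of 8 listed repressors of the seed programme could be.

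**Figure D5:**
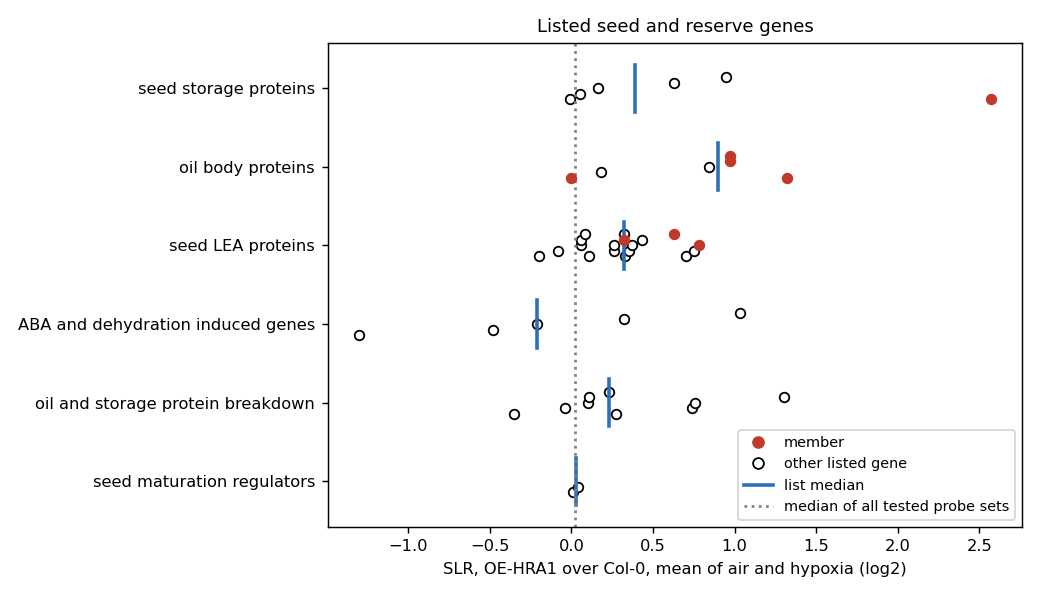
Averaged SLR of OE-HRA1 over Col-0 (x axis, log2 ratio) for the readable genes of 6 lists (rows). Red points are the 9 genes where they belong to a list, open points are other listed genes, blue bars are list medians and the dotted line is the median of all probe sets at 0.02. Oil body genes have the highest list median at 0.90, with OLEO1 and OLEO2 read only through the published list. ABA and dehydration induced genes have the lowest at -0.21.

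The 9 genes were compared in their course over the 8 arrays. Each gene was centred on its own mean and the 9 profiles were averaged. The averaged profile stood at 0.78 and 0.61 on the OE-HRA1 arrays against -0.59 and -0.45 in Col-0 under hypoxia, and at 0.22 and 0.27 on the OE-HRA1 arrays against -0.70 and -0.14 in Col-0 in air. Against the averaged profile of the other 8 genes, OLEO1 had a Pearson correlation of 1.0 after rounding, OLEO2 of 0.97, PER1 of 0.96 and CRU3 of 0.91 over the 8 arrays. M17 had 0.47 and OLEO3 0.04. The arrays share genotype and treatment, so these correlations describe 4 pairs of arrays and not 8 independent points.

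Of 1998 other probe sets with a gene name and a range of at least 1 log2 unit, the 10 that followed the profile most closely had correlations of 0.968 to 0.999. AT1G05510, which RefSeq names Oil Body-Associated Protein 1a, came first at 0.999, with 7.54 to 8.15 in OE-HRA1 and 6.65 to 7.17 in Col-0. AT2G43590 followed at 0.995, with 10.36 to 11.02 in OE-HRA1 and 8.98 to 9.70 in Col-0. AT3G01570 was next at 0.99. GASA3, of a family of gibberellin-regulated peptides, had 0.987 and HVA22B, of a family known for induction by ABA in barley, 0.98. The phosphatidylethanolamine-binding family gene AT5G01300 had 0.979, the oxidoreductase gene AT1G54870 0.971 and the LEA gene LEA18 0.968. AT1G27990 (0.984) and AT5G58570 (0.972) completed the 10. As the 10 were picked for a profile that is high in OE-HRA1, their genotype differences were fixed by that choice and are given without a test. The published list holds 6 of the 10, and 7 of the 10 were also among those with the highest Spearman correlation.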

How the data were processed

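The deposited table holds log2 signals of 22810 probe sets on 8 arrays, summarised by the authors with RMA. Their methods describe MAS5 detection calls, joint normalization with rosette arrays of another transgenic line, exclusion of organelle probe sets and LIMMA tests, but not whether the deposited values are from that run. They were taken as given, without the detection filter. Leaving out 64 control probe sets and 101 of organelle genes left 22645. The platform table named 13421 of these and the published list 573 more, with older names updated through RefSeq (TAIR10.1), while 8651 had no single name. The labels name no versions of RMA or MAS5.

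limma 3.58.1 (R 4.3.3) fitted 1 mean for each group, leaving 4 residual degrees of freedom beside a prior of 4.14, and p-values were adjusted by Benjamini-Hochberg over the 22645 probe sets. The lines were compared in a model with 3 residual degrees of freedom. P-values measure the spread between the arrays of a group. A group left with 1 array adds nothing to that spread, so p-values of such settings rest on the other groups. In simulated arrays of the air comparison over 22645 probe sets, 98% of changes of SLR 2 and 100% of SLR 3 were called. More probe sets were changed there than were called in air in the data, which eases the adjusted threshold. The simulated noise was independent between arrays and its spread was drawn from limma's fitted prior. No line or replicate difference and no smaller change was simulated. The 9 genes, the lists and the tests were chosen with earlier results of these data known. From each list every gene called between genotypes was named, up to 4, and where fewer than 2 were called the 2 of largest averaged SLR, and then the 10 genes most like the averaged profile.

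OE-HRA1 arrays are paired by line, and their deviations from the group means correlated at 0.15. For Col-0 arrays of one number this was 0.373, though the labels do not say what the number marks. Across genotypes it was -0.195 to 0.012, and numbers were not used to pair there. Other settings tried were a limit to the 60% or 40% of probe sets with the highest signal, limma's trend and robust options, renewed quantile normalization, centring on array medians, a block for the replicate number, fitting no other groups than those compared, other thresholds (an adjusted p under 0.05, or no minimum SLR), Spearman correlation, and omission of each array or line. Omission of each Col-0 replicate and replicate terms within each genotype were added after the values were seen.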

Additional observations from a re-analysis of the deposited data

Results flagged for a closer look

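Among the genes read, the signals of HRA1 and ADH1 changed with hypoxia differently in the 2 genotypes by limma's interaction test. For HRA1 the interaction was -5.75 (SE 0.19, adjusted p = 2.41e-05), with hypoxia over air at -0.93 in OE-HRA1 and 4.82 in Col-0. In OE-HRA1 this probe set reads the transgene as well, so -0.93 is not the response of the endogenous gene. The study's PCR of the endogenous transcript gave higher values under hypoxia than in air in both lines. For ADH1 it was -2.04 (SE 0.22, adjusted p = 0.00868), with hypoxia over air at 2.33 in OE-HRA1 and 4.37 in Col-0. With 2 arrays per group, no array could be tested as an outlier.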

How the results depend on the processing

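CRU3 stayed called under hypoxia and on average in every setting except 1, hypoxia without line #2 (adjusted p = 0.0125). With the replicate block across genotypes the numbers of called genes were unchanged (CRU3 in air, adjusted p = 0.00542, and OLEO1 under hypoxia, adjusted p = 0.00961). Of the 22645 probe sets, that block called 8 higher in air and 67 under hypoxia. In air, fitting only the groups compared called 0 genes. Under hypoxia, an adjusted p under 0.05 called 5 and a trend and robust prior variance 1. On average, no minimum SLR called 5, beside 1.65% of all probe sets higher, and median centring called 4. The top 40% of probe sets held only 4 of the genes, and 1 was called on average. OLEO1 was outside that set and not tested there, so its call was not lost by a test. For an adjusted p under 0.05, median centring and the trend and robust prior variance, no share of all probe sets is given beside these counts. The same holds for fits of only the groups compared and for the top 40%. A changed count in these settings therefore cannot be set against all probe sets. M17 was the 1 gene called for hypoxia in OE-HRA1 with only the groups compared (adjusted p = 0.000224), and the 1 gene called for that response and for the interaction with the block within each genotype. The cause was not tested.

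With 1 array, line or Col-0 replicate left out, 0 to 2 genes were called in air, 0 to 5 under hypoxia, 1 to 5 on average and 0 to 1 for hypoxia in OE-HRA1. The share of all probe sets called higher in these settings ran from 0.00442% to 0.0839% in air, from 0.00442% to 0.548% under hypoxia, from 0.0309% to 0.353% on average and from 0.495% to 2.08% for hypoxia in OE-HRA1. Without line #2, 0.00442% of all probe sets were called higher under hypoxia. The highest counts in air (OLEO1 and PER1, without CRU3), under hypoxia and on average came without Col-0 replicate 2. Each Col-0 group then held 1 array, so only the OE-HRA1 arrays measured the spread. The SLR of M17 ranged from -1.14 to 0.37 in air, from 0.42 to 1.64 under hypoxia and from -0.36 to 1.01 on average. For hypoxia in OE-HRA1, AT2G25890 ranged from -0.38 to 0.39 and AT3G15670 from -0.11 to 0.38. For hypoxia in Col-0 the ranges were -0.57 to 0.35 for OLEO1, -0.57 to 0.05 for OLEO2, -0.12 to 0.07 for OLEO3, -0.78 to 0.73 for M17 and -0.68 to 0.37 for PER1, and median centring gave 0.01 for OLEO3 and for M17. The interaction ranged from -0.26 to 0.33 for LEA4-5 and from -0.42 to 0.12 for AT3G15670. No other SLR of the 9 genes changed sign, apart from the averaged SLR of OLEO3 at 0.00. Signals near background, as for OLEO3, limit what could be read.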
